A study of Mus musculus with 16 samples.

Results

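Expression of the ligands Csf1 and Igf1 and of the growth factor receptors Csf1r, Csf2ra, Csf2rb, Csf3r, Igf1r and Igf2r was examined in sorted mouse microglia. These 8 genes were taken by symbol from the deposited table of 17951 genes. The table held 7 of them, 2 ligands and 5 receptors, and Igf2r was not analysed here. The ligands were higher in TG Me-X04- than in WT microglia and higher again in TG Me-X04+ microglia. Neither Csf1r nor Igf1r, the receptors of these ligands, passed the test in any comparison on the scaling as deposited.

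Libraries of microglia sorted as Cd11b and Cd45 positive, and by the methods of the study also as CX3CR1 positive, were made from the brains of WT mice of the 5xFAD line (n = 7) and of 5xFAD transgenic (TG) mice, which carry human transgenes with familial Alzheimer's disease mutations driven in neurons by the Thy1 promoter. All mice had been injected with Methoxy-X04 (Me-X04), a brain-permeable dye that binds amyloid deposits, and the microglia of the TG mice were sorted into cells without the dye (TG Me-X04-, n = 5) and cells that carried it (TG Me-X04+, n = 4). Each TG Me-X04+ library shares its animal label with a TG Me-X04- library, so that by these labels 4 of the TG mice gave both fractions. The study itself counts 6 TG animals. The labelled age is 2 months in WT and 6 months in TG mice, while the methods of the study give other and more similar ages. The fractions are called Me-X04- and Me-X04+ below, and a difference is given as the first named over the second. By the labels, age and genotype cannot be told apart in the comparisons with WT.

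Csf1 encodes macrophage colony-stimulating factor, a ligand of the receptor tyrosine kinase Csf1r, on whose signalling microglia depend for survival. Igf1 encodes insulin-like growth factor 1, which acts through the receptor tyrosine kinase Igf1r, and microglia near amyloid are known as a source of it. Csf2ra and Csf2rb encode the ligand-binding chain and the shared beta chain of the GM-CSF receptor, and Csf3r encodes the receptor of G-CSF, a cytokine that drives neutrophil production. In bulk libraries such as these, fewer cells of a type and less RNA per cell cannot be told apart.

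Values are log2 RPKM as deposited, that is, the log2 of reads scaled to gene length and to the size of the library. Levels are compared between genes on this scale, which takes the deposited length of each gene and not that of the transcripts present. Differences (log2FC) were tested with limma with the 3 groups in 1 fit, and a gene was called where its p, adjusted by Benjamini-Hochberg over all genes, was under 0.05 and its log2FC at least 0.7 in size. A small prior had been added to the reads, which makes log2FC values too small where reads are few. Errors of group means are SD. The reads recovered from the deposited values numbered 15623664 to 22119327 in WT, 17216633 to 25184600 in Me-X04- and 22430251 to 27579017 in Me-X04+ libraries, and mitochondrial genes took 12.6 to 31.3%, 20.6 to 44.8% and 31.3 to 56.8% of them. With the group means taken out, the first principal component (37.8% of the variance left) split the libraries into sets A and B, which held 3 and 4 WT, 2 and 3 Me-X04- and 2 and 2 Me-X04+ libraries. The methods name 2 sequencers without saying which library was run on which. All 12 microglial markers examined were measured, and their summed level was 4904 to 7666 RPKM in WT, 4332 to 8474 in Me-X04- and 5365 to 8447 in Me-X04+ libraries. Of these markers limma called Tmem119 lower in Me-X04+ than in Me-X04- (log2FC -1.58), and Tmem119 (-1.55) and P2ry12 (-0.97) lower in Me-X04+ than in WT libraries.

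The sequence before the RefSeq start sites of both ligands (build GRCm38.p6) is shown because these were the members that moved together. Windows from 250 bases before to 50 bases after the start were searched on both strands for GAGGAA (a core bound by PU.1, an ETS factor of myeloid cells), CACGTG (an E-box), TGANTCA (AP-1), TTCNNNGAA (a STAT site) and GCGTGGGCG (EGR), and matches are in capitals. The Igf1 window held 1 GAGGAA, at -60 to -55 from the start, and 1 TGANTCA, at -37 to -31, and only the 30 bases that span both are printed (chr10:87861051-87861080, plus strand), because the window lies in the first exon of other annotated Igf1 transcripts. The Csf1 window held none of the 5 motifs in these letters, and its 250 bases before the start are printed (chr3:107760470-107760719, minus strand).
Igf1: GAGGAAgggaaggagctggaactTGAATCA
Csf1: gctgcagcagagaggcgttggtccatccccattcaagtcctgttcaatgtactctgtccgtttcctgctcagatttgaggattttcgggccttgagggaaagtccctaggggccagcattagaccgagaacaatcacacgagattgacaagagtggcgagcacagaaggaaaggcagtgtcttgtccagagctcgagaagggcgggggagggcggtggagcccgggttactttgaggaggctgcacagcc
GAGGAA was also found in the windows of Csf2ra (2 matches) and Csf3r (1 match), and none of the 5 motifs in that of Igf1r. Of all 32851 promoter windows, 28.3% held GAGGAA, 7.15% CACGTG, 7.81% TGANTCA, 8.3% TTCNNNGAA and 0.612% GCGTGGGCG. None of the 5 motifs was found in the windows of both ligands. Whether these motifs bear on the levels of the ligands was not tested.

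For Me-X04+ over Me-X04- microglia, 2 of the 7 members were called, both ligands and both higher in Me-X04+, beside 986 of all 17951 genes (5.49%), of which 617 were higher (3.44%) and 369 lower (2.06%). For Me-X04- over WT microglia the same 2 of 7 were called higher, where over all genes only 36 were called (0.201%), 34 higher (0.189%) and 2 lower (0.0111%). For Me-X04+ over WT microglia the same 2 of 7 were called higher, beside 2562 of all genes (14.3%), 1481 higher (8.25%) and 1081 lower (6.02%). None of the 5 receptors was called by limma in these comparisons. At an unadjusted p under 0.05 there were 1, 0 and 1 (Csf2ra, in both comparisons of Me-X04+), and with voom on the recovered reads 0, 0 and 1 were called. The 3 comparisons share their groups and are not independent of each other. The median log2FC of all genes was -0.09, 0.01 and -0.11 in the same order.

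Csf1 (ENSMUSG00000014599, GRCm38 chromosome 3, 107741048 to 107760469, minus strand) had a log2 RPKM of 0.38 at the lowest, 0.62 at the median and 1.50 at the highest in WT microglia, with 120 to 246 reads per library. In Me-X04- microglia its log2 RPKM was 3.17, 2.48, 2.12, 2.45 and 2.25 in libraries 1 to 5, with 585 to 785 reads. In Me-X04+ microglia it was 5.67, 5.84, 4.98 and 5.80 in libraries 1 to 4, with 3564 to 6934 reads. Every Me-X04- library lay above every WT library, and every Me-X04+ library above every Me-X04- library. The group means were 0.80 ± 0.39 (n = 7), 2.49 ± 0.41 (n = 5) and 5.57 ± 0.40 (n = 4). Csf1 was 3.24-fold higher in Me-X04- than in WT microglia (log2FC 1.69, SE 0.25, limma adjusted p = 0.00378). It was a further 8.46-fold higher in Me-X04+ than in Me-X04- microglia (log2FC 3.08, SE 0.29, limma adjusted p = 2.12e-05), the rank 3 of all genes by p in that comparison. From WT to Me-X04+ the difference was 27.4-fold (log2FC 4.78, SE 0.27, limma adjusted p = 9.52e-09), and the log2FC was 4.14 with log2(RPKM + 1).

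Igf1 (ENSMUSG00000020053, GRCm38 chromosome 10, 87858265 to 87937042, plus strand) had a log2 RPKM of -4.63 at the lowest, -3.49 at the median and -1.15 at the highest in WT microglia, on 7 to 65 reads per library. In Me-X04- microglia its log2 RPKM was 1.66, 0.70, 0.40, -0.16 and 0.33 in libraries 1 to 5, with 222 to 513 reads. In Me-X04+ microglia it was 4.68, 4.74, 4.35 and 4.95 in libraries 1 to 4, with 3363 to 7189 reads. As for Csf1, the 3 groups did not overlap, and the WT libraries were the most scattered, WT 3 being the highest of them. The group means were -3.26 ± 1.17 (n = 7), 0.58 ± 0.67 (n = 5) and 4.68 ± 0.25 (n = 4). Igf1 was 14.4-fold higher in Me-X04- than in WT microglia (log2FC 3.84, SE 0.51, limma adjusted p = 0.00157), the rank 5 of all genes by size of log2FC. It was 17.1-fold higher in Me-X04+ than in Me-X04- microglia (log2FC 4.09, SE 0.59, limma adjusted p = 0.000831). From WT to Me-X04+ the difference was 245-fold with a 95% confidence interval of 110.0 to 547 (log2FC 7.94, SE 0.55, limma adjusted p = 6.97e-08), and only 1 gene of the table had a larger log2FC in size. These sizes depend on the pseudocount. With log2(RPKM + 1) the log2FC of Igf1 was 1.17 for Me-X04- over WT, 3.38 for Me-X04+ over Me-X04- and 4.55 for Me-X04+ over WT, and with log2(RPKM + 0.1) 2.88, 4.00 and 6.88, all of them called. Border-associated macrophages of the brain also express Igf1. All 7 of their markers examined were measured and none was called in any comparison by limma or with voom (0, 0 and 1 at an unadjusted p under 0.05), with summed levels of 2.51 to 6.40 RPKM in WT, 1.78 to 7.65 in Me-X04- and 2.82 to 20.9 in Me-X04+ libraries, and their part in the Igf1 values was not tested. A filter on the mean log2 RPKM at 0 would remove Igf1, whose mean over all libraries was -0.07.

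Groups that did not overlap were found for 2 of the 7 members in each comparison, Csf1 and Igf1, while over all genes the share was 7.93% for Me-X04+ over Me-X04-, 1.06% for Me-X04- over WT and 10.5% for Me-X04+ over WT. Within the sets of libraries the ligands also did not overlap between any 2 groups. With so few libraries (2 to 4 per group in a set) this occurs easily, and its share over all genes was not examined. It was also seen for Csf1r in Me-X04- over WT, with opposite signs in sets A and B (0.20 and -0.23). Csf1 was higher by 2.93 in set A and by 3.12 in set B for Me-X04+ over Me-X04-, and by 1.74 and 1.69 for Me-X04- over WT (log2 RPKM, differences of means). For Igf1 these differences were 3.53 and 4.46, and 3.70 and 4.00. With libraries scaled by the reads outside mitochondrial genes, whose share ran highest in Me-X04+ libraries, the log2FC of Me-X04+ over Me-X04- was 2.81 for Csf1 and 3.82 for Igf1, and that of Me-X04- over WT 1.81 and 3.96.

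**Figure D1:**
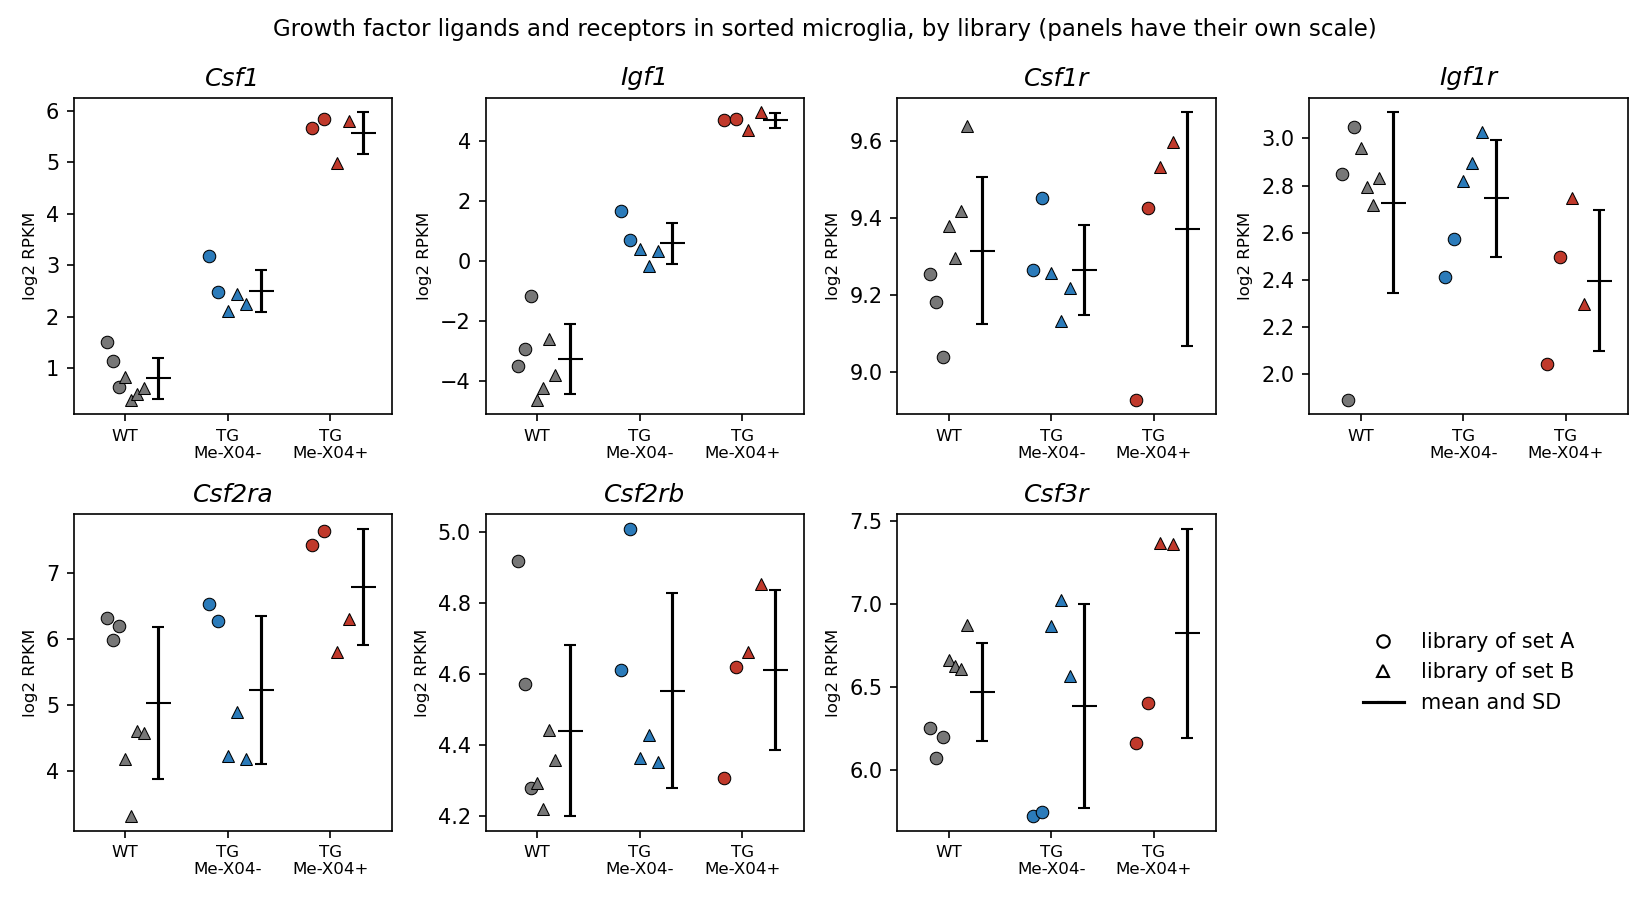
Log2 RPKM of the 7 members in each of the 16 libraries, by group, each panel with its own vertical scale (circles, libraries of set A, triangles, libraries of set B, bars, mean and SD). The groups of Csf1 and Igf1 do not overlap, while the libraries of Csf2ra and Csf3r part by set within each group.

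Within the 4 TG mice that by the labels gave both fractions, Csf1 was higher in the Me-X04+ fraction in 4 of 4. The differences were 2.50, 3.36, 2.87 and 3.35 on the log2 scale in TG1 to TG4 (mean 3.02 ± 0.42). Igf1 was higher in 4 of 4, by 3.03, 4.04, 3.95 and 5.11 (mean 4.03 ± 0.85). The share of all genes that went in the same direction in 4 of 4 animals was not examined, here or for the receptors below. TG1 had the smallest difference of both ligands, and its Me-X04- library was the highest of its group for both. Over the deviations of the 16 libraries from their group means, however, Csf1 and Igf1 correlated with no more than r = 0.22, against 0.95 over all libraries with the groups included.

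**Figure D2:**
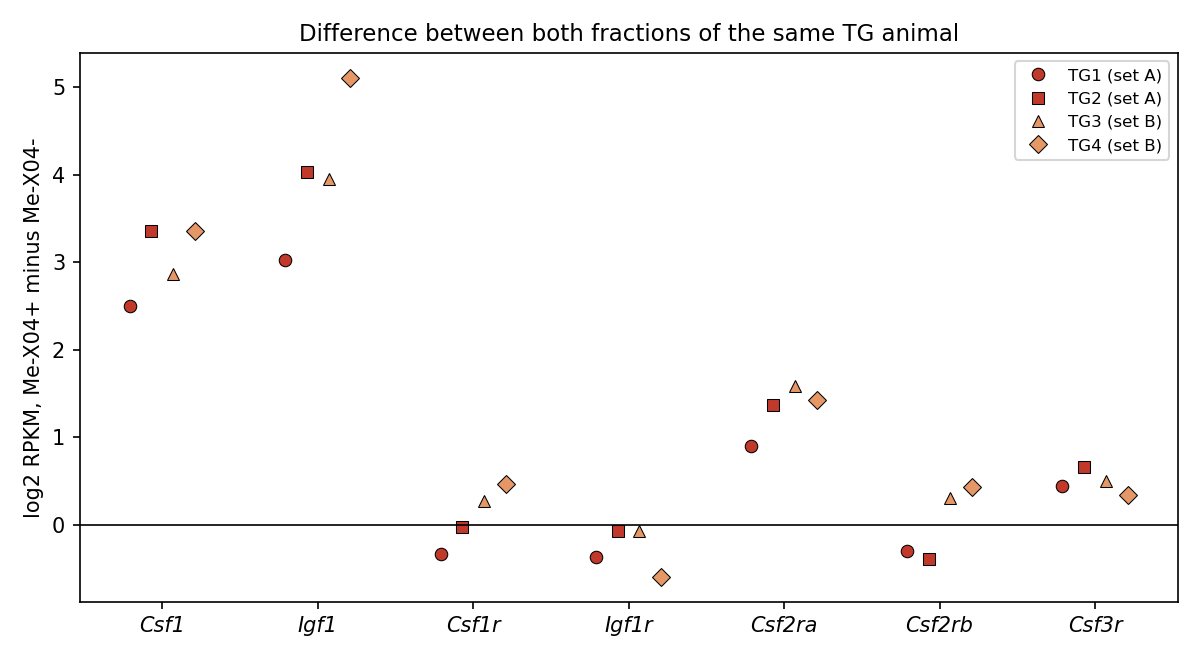
Log2 RPKM of the Me-X04+ fraction minus that of the Me-X04- fraction of the same animal, for the 7 members in the 4 TG mice with both fractions by the labels. Csf1, Igf1, Csf2ra and Csf3r lie above 0 in 4 of 4 animals and Igf1r below 0 in 4 of 4, while Csf1r and Csf2rb lie on both sides.

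Csf1r (ENSMUSG00000024621), the receptor of Csf1, was the highest of the members in every library. Its log2 RPKM was 9.04 at the lowest, 9.30 at the median and 9.64 at the highest in WT microglia. It was 9.27, 9.45, 9.26, 9.13 and 9.22 in Me-X04- libraries 1 to 5 and 8.93, 9.43, 9.53 and 9.60 in Me-X04+ libraries 1 to 4. The groups overlapped, and the Me-X04+ group held both the lowest of all 16 values and the second highest. The log2FC was 0.11 for Me-X04+ over Me-X04- (95% confidence interval -0.37 to 0.58, limma adjusted p = 0.853), -0.05 for Me-X04- over WT (-0.46 to 0.37) and 0.06 for Me-X04+ over WT (-0.39 to 0.50). These intervals leave room for differences of up to about 0.58 on the log2 scale. The values depend on the scaling. After quantile normalization the log2FC was -0.78 for Me-X04+ over Me-X04- (limma adjusted p = 0.187), which was not called. For Me-X04+ over WT it was then -1.05 (limma adjusted p = 0.0215), so that Csf1r was called lower. On 873 bases its exons overlap those of Hmgxb3 on the other strand, and the sources used here do not say whether counting used strand, so reads there may belong to either gene.

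Igf1r (ENSMUSG00000005533, GRCm38 chromosome 7, 67952827 to 68233668, plus strand), the receptor of Igf1, had a log2 RPKM of 1.89 at the lowest, 2.83 at the median and 3.05 at the highest in WT microglia. It was 2.41, 2.57, 2.82, 2.90 and 3.03 in Me-X04- libraries 1 to 5 and 2.04, 2.50, 2.75 and 2.30 in Me-X04+ libraries 1 to 4. The 3 groups overlapped, and the low WT value was that of WT 2 alone. The log2FC was -0.35 for Me-X04+ over Me-X04- (95% confidence interval -0.88 to 0.17, limma adjusted p = 0.501), 0.02 for Me-X04- over WT and -0.33 for Me-X04+ over WT (-0.82 to 0.16). In the Me-X04+ fraction it was the lower in 4 of 4 animals, by -0.37, -0.08, -0.07 and -0.60 on the log2 scale in TG1 to TG4. The mean was -0.28 ± 0.25, a difference that limma did not call.

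**Figure D3:**
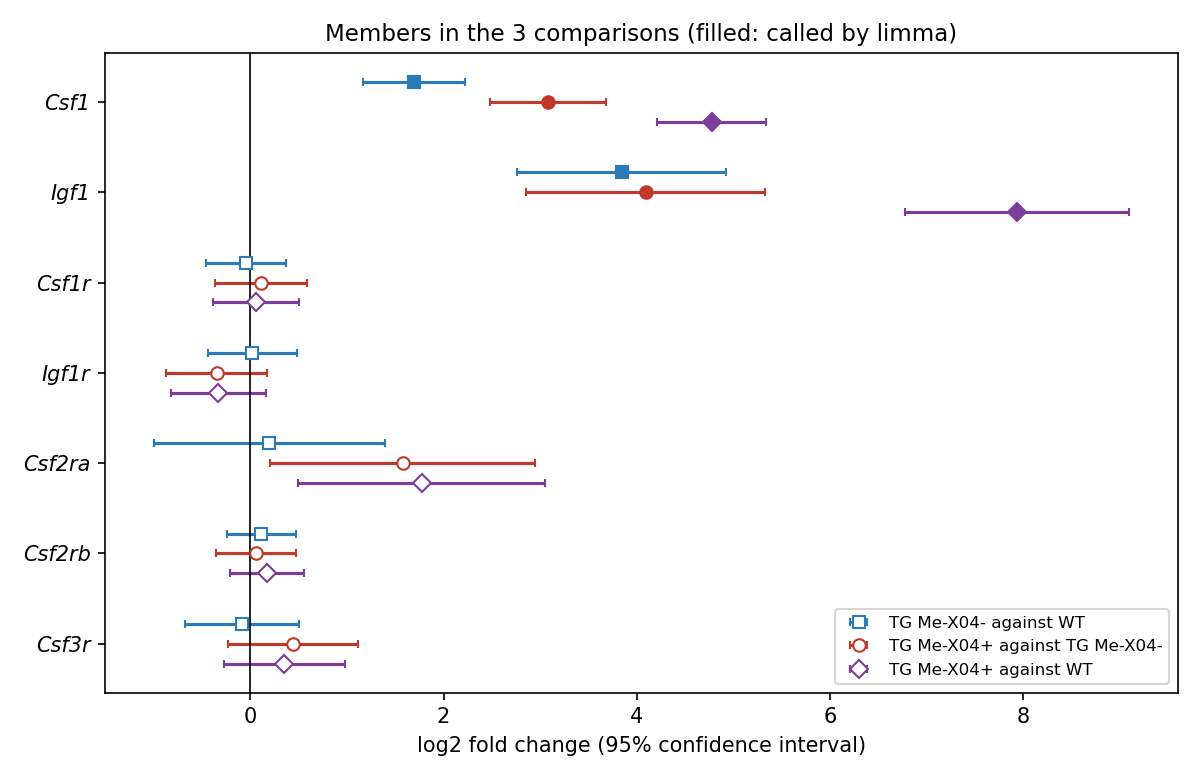
Log2FC of the 7 members in the 3 comparisons with 95% confidence intervals from limma (filled symbols, called, open symbols, not called). The intervals of Csf1 and Igf1 lie far above 0 in each comparison, those of Csf2ra lie above 0 in both comparisons of Me-X04+ without being called, and those of the other receptors include 0.

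Set against its receptor in the same library, Csf1 minus Csf1r came to a difference of -8.52 ± 0.48 on the log2 scale in WT, -6.77 ± 0.41 in Me-X04- and -3.80 ± 0.55 in Me-X04+ microglia. Receptor RNA thus exceeded ligand RNA 366-fold, 109-fold and 13.9-fold. For Igf1 minus Igf1r the difference was -5.99 ± 1.24 in WT, -2.16 ± 0.90 in Me-X04- and 2.28 ± 0.49 in Me-X04+ microglia. The order of this pair therefore turned, with more receptor than ligand RNA in all WT and Me-X04- libraries and more ligand than receptor RNA in all Me-X04+ libraries (1.60 to 2.65 on the log2 scale). These values describe RNA per length of gene, not protein, and were not tested. Their sizes rest on the deposited length of each gene.

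**Figure D4:**
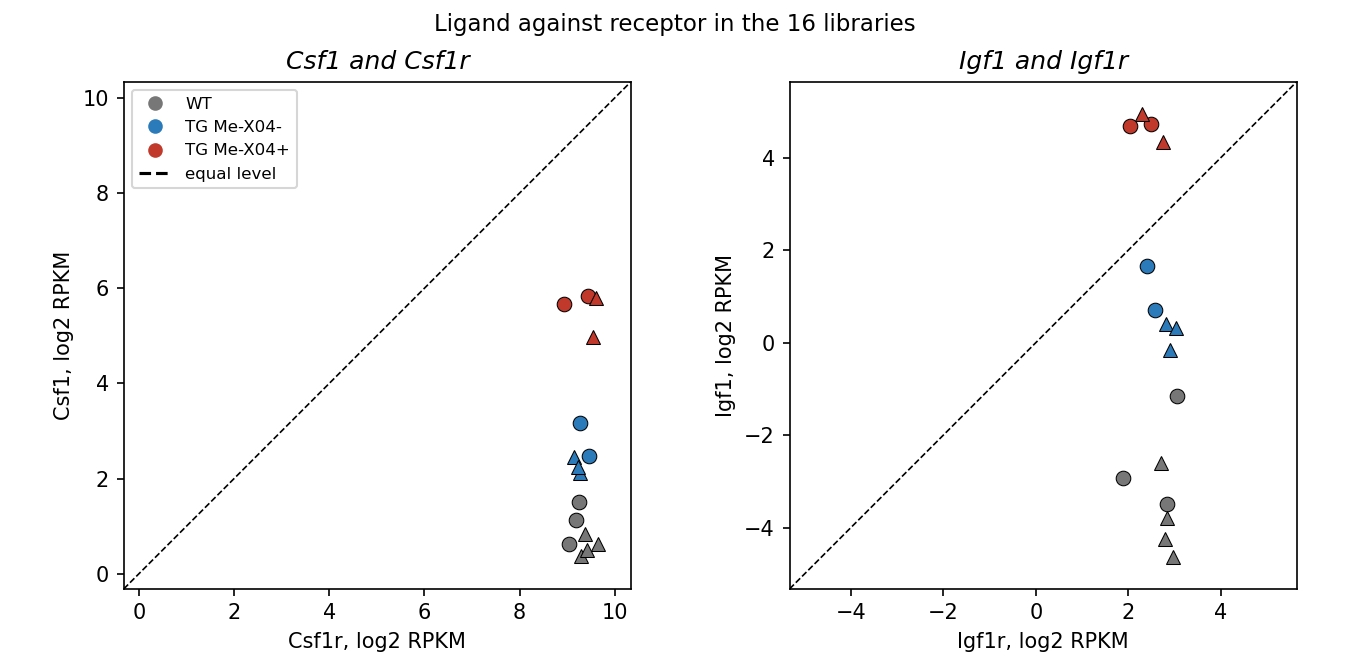
Log2 RPKM of each ligand (vertical axis) against that of its receptor (horizontal axis) in the 16 libraries, coloured by group, with circles for set A, triangles for set B and a dashed line at equal levels. The libraries spread along the ligand axis, and Igf1 crosses the line of equal levels in the 4 Me-X04+ libraries.

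Csf2ra (ENSMUSG00000059326, GRCm38 chromosome 19, 61223957 to 61228429, minus strand), the ligand-binding chain of the GM-CSF receptor, was the receptor with the largest differences. Its log2 RPKM was 3.31 at the lowest, 4.61 at the median and 6.33 at the highest in WT microglia. It was 6.54, 6.28, 4.22, 4.89 and 4.18 in Me-X04- libraries 1 to 5 and 7.44, 7.64, 5.80 and 6.31 in Me-X04+ libraries 1 to 4. The groups overlapped, but within each group the libraries of set A were all above those of set B, with means of 6.17 and 4.17 in WT, 6.41 and 4.43 in Me-X04- and 7.54 and 6.06 in Me-X04+ microglia. The log2FC was 1.58 for Me-X04+ over Me-X04- (SE 0.65, limma adjusted p = 0.189), 0.20 for Me-X04- over WT (SE 0.57) and 1.77 for Me-X04+ over WT (SE 0.61, limma adjusted p = 0.0596), none of them called.

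Within the sets, Me-X04+ libraries had more Csf2ra than Me-X04- libraries without overlap, by 1.13 in set A and 1.63 in set B on the log2 scale, and more than WT libraries without overlap, by 1.37 and 1.89. Each group held only 2 to 4 libraries in a set, and the share of all genes without such overlap was not examined. In the Me-X04+ fraction Csf2ra was the higher in 4 of 4 animals, by 0.90 to 1.58 (mean 1.32 ± 0.29). With a term for the sets in the limma fit Csf2ra was called higher in Me-X04+ than in Me-X04- (log2FC 1.39, adjusted p = 0.00104) and than in WT microglia (log2FC 1.64, adjusted p = 4.11e-05), where 11.9% and 21.8% of all genes were called. The sets were drawn from these same values, so the term removes spread by construction. The adjusted p of that fit may be too small, most of all for genes that part by set. Against WT it was also called in limma fits with library weights (adjusted p = 0.0303), with voom on the recovered reads (adjusted p = 0.0352) and without WT 1 (log2FC 1.99), WT 2 (1.93), WT 3 (1.97) or Me-X04+ 3 (2.10). With the animal as a block it was not called (limma adjusted p = 0.0575 between the TG fractions). The call for Csf2ra thus depended on the fit and on single libraries.

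Csf2rb (ENSMUSG00000071713, GRCm38 chromosome 15, 78325752 to 78353847, plus strand), the shared beta chain, had a mean log2 RPKM of 4.44 ± 0.24 in WT, 4.55 ± 0.28 in Me-X04- and 4.61 ± 0.23 in Me-X04+ microglia. The lowest of all its values was 4.22, in WT, and the highest 5.01, in Me-X04-, so that all groups overlapped within a narrow range. The log2FC was 0.06 for Me-X04+ over Me-X04- (95% confidence interval -0.35 to 0.47), 0.11 for Me-X04- over WT (-0.25 to 0.47) and 0.17 for Me-X04+ over WT (-0.21 to 0.56), with limma adjusted p of 0.911, 0.999 and 0.604. Of its words of 50 bases, 12.3% also occur in transcripts of the paralog Csf2rb2, whose own log2FC were 0.10, -0.14 and -0.04, and reads on these stretches may have been split between the genes or lost.

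Csf3r (ENSMUSG00000028859, GRCm38 chromosome 4, 126024550 to 126044440, plus strand), the receptor of G-CSF, had a log2 RPKM of 6.07 at the lowest, 6.60 at the median and 6.87 at the highest in WT microglia. It was 5.72, 5.74, 6.86, 7.02 and 6.57 in Me-X04- libraries 1 to 5 and 6.16, 6.40, 7.36 and 7.36 in Me-X04+ libraries 1 to 4. The groups overlapped, and here the libraries of set B were the higher in every group, the reverse of Csf2ra. The log2FC was 0.44 for Me-X04+ over Me-X04- (95% confidence interval -0.24 to 1.12, limma adjusted p = 0.513), -0.09 for Me-X04- over WT and 0.35 for Me-X04+ over WT (-0.28 to 0.98). Within the sets the Me-X04+ libraries exceeded the Me-X04- libraries by 0.55 in both sets without overlap, on only 2 libraries against 2 or 3. The Me-X04+ fraction was the higher in 4 of 4 animals (mean 0.49 ± 0.13 on the log2 scale), although the log2FC turned to -0.22 after quantile normalization. With a term for the sets the log2FC was 0.52 (limma adjusted p = 0.0216), below the minimum of 0.7 for a call. As for Csf2ra, this adjusted p may be too small, because the sets were drawn from these same values. Neutrophils also express Csf3r. Of 8 neutrophil markers 3 were measured, with a summed level of 0.40 to 12.7 RPKM in WT, 0.49 to 26.0 in Me-X04- and 0.40 to 21.0 in Me-X04+ libraries. None of these 3 was called by limma or with voom (0, 0 and 1 at an unadjusted p under 0.05). The part of neutrophils in the Csf3r values was not tested.

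Ordered by mean log2 RPKM, the members in WT microglia ran from Csf1r through Csf3r, Csf2ra, Csf2rb, Igf1r and Csf1 to Igf1. The neighbours Csf3r and Csf2ra (1.44 ± 1.41 apart, in this order in 6 of 7 libraries) and Csf2ra and Csf2rb (0.59 ± 1.02, in 5 of 7) lay close to or within their spread, while the other neighbours kept the order in all 7 libraries. In Me-X04- microglia the order of means was the same, with Csf3r and Csf2ra 1.16 ± 1.69 apart (in this order in 3 of 5 libraries) and Igf1r and Csf1 now only 0.25 ± 0.63 apart. In Me-X04+ microglia both ligands lay above Igf1r, and Csf3r and Csf2ra could not be ordered (0.02 ± 1.49 apart). Csf1 took the place below Csf2ra, and Igf1 and Csf2rb stood 0.07 ± 0.28 apart. Among all genes of the table, Csf1 moved from percentile 36.9 in WT through 67.8 to 96.3, and Igf1 from 3.26 through 32.3 to 92.8, whereas Csf1r stayed at 99.8, 99.7 and 99.6.

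The genes with the pattern most like that of a member were taken by Pearson's r over the 16 libraries among 13178 genes with a symbol and a mean log2 RPKM of at least 0. For Csf1 these were Itgax (r = 0.99), which encodes the integrin CD11c, Ank (0.98), which encodes a pyrophosphate transporter, and Axl (0.97), a receptor tyrosine kinase. For Igf1 they were Ptchd1 (0.96), Ccl3 (0.95), a chemokine gene, and Csf1 (0.95). Over deviations from the group means r fell to 0.75, 0.56 and 0.59 for Csf1 and to 0.73, 0.22 and 0.22 for Igf1. Csf2ra was most like Il6st (0.97), the shared gp130 chain of the IL-6 receptor family, Cd180 (0.96) and Gm5611 (0.96), and here r over the deviations was still 0.95, 0.93 and 0.93, with the libraries split by set. The genes most like Csf1r were Tgfb1 (0.89), Ube3b (0.89) and Mef2d (0.84), those most like Csf2rb were Ddx1 (0.87), Smim19 (0.84) and 2610301B20Rik (0.80), those most like Csf3r were Gm13604 (0.95), Eif3k (0.94) and Dnase2a (0.92), and those most like Igf1r were Khk (0.91), Rbm38 (0.89) and Pdik1l (0.88). For these receptors too r stayed high over the deviations. In the same order it was 0.89, 0.91 and 0.85 for Csf1r and 0.86, 0.86 and 0.79 for Csf2rb. It was 0.94, 0.94 and 0.94 for Csf3r and 0.88, 0.86 and 0.86 for Igf1r. Library depth and set are shared by all points of these correlations, which are given as descriptions.

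Other genes of the same pathways were examined as 6 lists, of which 79 of 129 genes were measured besides the members. For Me-X04+ over Me-X04- microglia 11 of these 79 were called (13.9%, beside 5.49% of all genes), 9 higher and 2 lower, with a median log2FC of -0.14. For Me-X04+ over WT 16 were called (20.3%, beside 14.3% of all genes), 12 higher and 4 lower, with a median of -0.11. The lists were chosen with earlier results of these data known, so these shares are descriptions only. For Me-X04- over WT none of the 79 was called by limma or with voom and 5 had an unadjusted p under 0.05. Over all genes only 0.201% were called in that comparison, so a count of 0 among 79 does not set these genes apart. The other ligands of the Csf receptors, Il34, Csf2 and Csf3, and the insulin genes were not analysed here.

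Of the other partners of the Csf receptors, Csf2rb2 and Il3ra were measured and not called by limma or with voom in any comparison (0, 0 and 1 at an unadjusted p under 0.05, Il3ra in Me-X04+ over WT). Of the IGF and insulin list, the measured genes Igf2, Insr, Igfbp4 and Igfbp7 were not called either (1, 0 and 1 at an unadjusted p under 0.05, Igfbp4 each time). Insr, the insulin receptor, was the highest of them, with a mean of 3.57 ± 0.16 in WT, 3.59 ± 0.14 in Me-X04- and 3.33 ± 0.38 in Me-X04+ microglia. Igfbp4, which binds IGFs, had a log2FC of -0.96 for Me-X04+ over Me-X04- without overlap (SE 0.32, limma adjusted p = 0.0927).

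Downstream of Igf1r and the insulin receptor, 1 of 18 measured genes (5.56%) was called for Me-X04+ over Me-X04-, near the 5.49% of all genes, and 2 (11.1%) for Me-X04+ over WT, below the 14.3% of all genes. Pik3r1, a regulatory subunit of PI3-kinase and the highest of this list, had means of 5.04 ± 0.25, 4.97 ± 0.70 and 4.68 ± 0.55 in WT, Me-X04- and Me-X04+ microglia.

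Of 28 measured genes downstream of the Csf receptors, 2 (7.14%) were called for Me-X04+ over Me-X04-, near the 5.49% of all genes. Socs3, a feedback inhibitor of JAK and STAT signalling, was lower (log2FC -2.29, SE 0.46, limma adjusted p = 0.00748), with means of -0.93 ± 1.11 and 1.36 ± 0.26. Fyn, a Src family kinase, was higher (log2FC 1.75, limma adjusted p = 0.0347), but lost its call in 11 of 24 alternatives, among them the replicate block (limma adjusted p = 0.0821). Against WT, 4 of the 28 (14.3%, the share of all genes) were called in Me-X04+, among them Fyn (1.54) higher and Socs3 (-1.58) and Pik3r5 (-1.06) lower. Of these, Socs3 lost its call in 6 of 26 alternatives, Pik3r5 in 4 of 27 and Fyn in 2 of 26. Lyn, a Src family kinase and the highest of the list, had means of 6.76 ± 0.24, 6.73 ± 0.30 and 6.43 ± 0.18 and was not called.

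The other growth factor ligands held the largest share of called genes among the lists, 6 of 17 (35.3%) for Me-X04+ over Me-X04-, beside 5.49% of all genes. This list too was chosen with earlier results of these data known, and its share was not tested. The fibroblast growth factor genes Fgf1 (log2FC 2.86, limma adjusted p = 0.0148), Fgf13 (2.41, 0.00236) and Fgf2 (2.09, 0.000259) were higher in Me-X04+. Fgf2 had means of 1.17 ± 0.18 in WT, 1.75 ± 0.13 in Me-X04- and 3.84 ± 0.61 in Me-X04+ microglia. Vegfb was higher by 1.23, a call that was lost in 8 of 25 alternatives, and Grn, which encodes progranulin and was the highest of the list, by 0.98 (limma adjusted p = 0.0319), with means of 7.52 ± 0.19 and 8.50 ± 0.45. Kitl, the ligand of the receptor Kit, was lower (log2FC -1.43, limma adjusted p = 0.0167), and not called with the replicate block (limma adjusted p = 0.0675). Against WT, 7 of 17 (41.2%) were called, beside 14.3% of all genes. Pdgfc had the largest difference (log2FC 4.33, limma adjusted p = 0.000112), on 0 to 15 reads per WT library (log2FC 0.72 with log2(RPKM + 1)). The others named here were Fgf1 (3.68), Fgf13 (2.87), Fgf2 (2.67) and Grn (1.54), all higher, and Kitl, lower (-0.98), whose call was lost in 13 of 26 alternatives. Vegfb (1.75) was the remaining one.

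Of 10 other growth factor receptors, 2 (20%, beside 5.49% of all genes) were called for Me-X04+ over Me-X04-. These were Flt1 and Nrp1, both receptors of the VEGF family and both higher. Flt1 had a mean of -5.50 ± 1.00 in WT, on 0 to 13 reads, -3.18 ± 1.21 in Me-X04- and 0.37 ± 0.25 in Me-X04+ microglia (log2FC 3.55 between the TG fractions, limma adjusted p = 0.00608), and its log2FC was 1.02 between the TG fractions and 1.16 for Me-X04+ over WT with log2(RPKM + 1). Nrp1, the highest of the list, had means of 4.10 ± 0.24, 3.75 ± 0.51 and 5.12 ± 0.50 (log2FC 1.37, limma adjusted p = 0.00657). Against WT, 3 of the 10 (30%) were called, beside 14.3% of all genes. These were Flt1 (log2FC 5.87), Nrp1 (1.01) and Nrp2 (0.74, limma adjusted p = 0.0464), and the call of Nrp2 was lost in 18 of 27 alternatives. Both measured endothelial markers, Pecam1 and Cdh5, summed to 2.28 to 12.6 RPKM in WT, 1.51 to 2.36 in Me-X04- and 0.039 to 6.44 in Me-X04+ libraries, Pecam1 was called lower in Me-X04+ than in WT microglia (log2FC -4.83), and their part in the Flt1 values was not tested.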

How the data were processed

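RNA was measured in 16 libraries of sorted microglia. The authors trimmed reads (Trim Galore 0.4.4), aligned them to GRCm38 (STAR 2.5.4b), counted them with featureCounts on Gencode genes, filtered low genes and scaled libraries by TMM. They deposited log2 RPKM values for 17951 genes, with their own comparisons (fold changes with p-values), which were not used. The methods name edgeR 3.24.3 on counts, which were not used here.

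Tests on the deposited log2 RPKM used limma (version 3.58.1 in R 4.3.3, with variance trend, two-sided, Benjamini-Hochberg over all genes). All values (100%) stood for whole reads within 0.01, which gave depths and the voom alternative. Where nothing states separate extractions, p-values measure the spread between these libraries.

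Members, lists and tests were chosen with earlier results of these data known. The text names the members, every called gene of a list and comparison (up to 4 higher and 4 lower by log2FC), the highest gene of each list and the 3 genes most like each member. Csf2rb2, Il3ra, Igf2, Igfbp4 and Igfbp7, of lists with no call, and Vegfb against WT were named after their values were seen. Some genes that this rule names are not reported here. Coordinates are those of GENCODE on GRCm38, a later release than the authors used. Of the 7 measured members, promoters of 5 were searched.

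On data simulated for TG Me-X04+ against TG Me-X04- over 17951 genes, the test called 60% of 100 genes with a simulated log2 change of 1.5 and 100% of 100 with one of 3, beside 6 unchanged genes. The simulated reads had the same dispersion for all genes, no library sets and no shared animals. Only genes with a mean log2 RPKM of at least 0 were changed. These shares therefore do not tell how often the test finds such changes in the real libraries.

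The pairing comes from the labels, which give same-numbered TG libraries the same animal. After removal of group means, r across genes for the same animal was 0.292 to 0.329 (4 pairs), against a mean of 0.300 between libraries of other numbers in the same set. These values do not set same-numbered libraries apart, so they cannot tell whether the pairing is right. The alternatives were the variance model, library weights, median centring, quantile normalization, scaling by reads outside mitochondrial genes, pseudocounts of 1 and 0.1, filters at a mean log2 RPKM of 0 and 2, only the 2 groups compared, no minimum fold, voom, a term for the 2 sets, the replicate block, and each library left out.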

Additional observations from a re-analysis of the deposited data

Results flagged for a closer look

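Igf1r in WT 2 stood apart from the other 6 WT libraries, with a log2 RPKM of 1.89 against 2.72 to 3.05. It was the only value of 21 groups examined (7 members in 3 groups) to lie so far from the rest of its group by Dixon's criterion, by which chance alone marks about 1 in 20 groups. Without WT 2 the log2FC of Igf1r between TG Me-X04- and WT was -0.12, in place of 0.02, and was not called.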

How the results depend on the processing

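Csf1 and Igf1 were called higher in each comparison under every alternative in which they were tested. Filters at a mean log2 RPKM of 0 or 2 removed Igf1 and left 1 member called in place of 2 in each comparison. With the replicate block 2 members were called in each comparison, and over all genes 894, 18 and 2537 (between the TG fractions, Me-X04- over WT, Me-X04+ over WT). The block changed no call of a member, and among the list genes named between the TG fractions Fyn and Kitl lost theirs. With the animal as a random block the first count was 2110. With a term for the library sets 3 members were called in both comparisons of Me-X04+, since Csf2ra was added. The sets were drawn from these same values, so that fit is not an independent check. Leaving out 1 library left 2 members called, or up to 3 in Me-X04+ over WT, where Csf2ra was again the one added. After quantile normalization Csf1r was called lower in Me-X04+ than in WT microglia (log2FC -1.05, limma adjusted p = 0.0215), beside the ligands. The signs of small receptor differences also turned with the scaling, and the cause was not tested. After quantile normalization, the log2FC between the TG fractions was -0.78 for Csf1r, -0.25 for Csf2rb and -0.22 for Csf3r, and that of Me-X04+ over WT -1.05, -0.094 and -0.28. Scaling by reads outside mitochondrial genes, which moved the median of all genes to -0.36 between the TG fractions, -0.26 for Me-X04+ over WT and 0.12 for Me-X04- over WT, gave -0.17 for Csf1r and -0.22 for Csf2rb between the TG fractions, -0.10 for Csf1r in Me-X04+ over WT, and 0.064 for Csf1r and 0.027 for Csf3r in Me-X04- over WT. In the last comparison the replicate block gave 0.036 for Csf1r and 0.021 for Csf3r, and library weights 0.064 for Csf3r. Leaving out 1 library turned signs within -0.022 to 0.17 for Csf2rb between the TG fractions and -0.020 to 0.20 for Csf1r in Me-X04+ over WT. In Me-X04- over WT these ranges were -0.096 to 0.0041 for Csf1r, -0.13 to 0.46 for Csf2ra, -0.0015 to 0.19 for Csf2rb, -0.25 to 0.079 for Csf3r and -0.12 to 0.10 for Igf1r. With log2(RPKM + 1), Csf1 minus Csf1r was -7.85 and Igf1 minus Igf1r -2.75 in WT. Leaving out 1 library gave ranges in WT of -8.64 to -8.43 and -6.28 to -5.72, in TG Me-X04- of -6.94 to -6.68 and -2.51 to -1.94, and in TG Me-X04+ of -3.98 to -3.55 and 2.16 to 2.51.

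Counts over all genes moved by over 1.5 times in these alternatives. Between the TG fractions 986 became 470 with only the 2 groups (347 higher, 123 lower), 655 with the filter at 2, 2142 when the sets were a term, 552 without TG Me-X04- 5 and 624 without TG Me-X04+ 2. In Me-X04- over WT 36 became 175 with library weights, 13 with log2(RPKM + 1), 19 and 16 with the filters, 101 when the sets were a term, and 19, 23 and 23 without TG Me-X04- 1, 3 or 4. In Me-X04+ over WT 2562 became 1419 with the filter at 2 and 3919 when the sets were a term. The split of the 986 (617 higher, 369 lower) was 308 and 680 with scaling outside mitochondrial genes, 421 and 407 after quantile normalization, 727 and 253 with log2(RPKM + 1) and 738 and 287 with voom, and that of the 2562 (1481 and 1081) was 1237 and 1499 outside mitochondrial genes. With log2(RPKM + 1) the log2FC between the TG fractions was 1.12 for Fyn, -1.16 for Socs3, 1.88 for Fgf1 and 1.81 for Fgf13, and for Me-X04+ over WT -0.70 for Socs3, 2.27 for Fgf1 and 2.07 for Fgf13. Few reads in WT (7 to 65 per library for Igf1, 0 to 13 for Flt1, 0 to 15 for Pdgfc) limit how precisely folds against WT are known.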
